A study of Drosophila melanogaster with 65 samples.

Results

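H3K4me3 was compared at gene starts of OSS cells after knockdown of Traffic jam, using the Cut&Run summits deposited for 4 libraries. OSS is an established line of somatic sheath cells from the Drosophila melanogaster ovary, and the label of every library names this line and nothing more of its source. The libraries were 1 from cells given siRNA against Traffic jam (siTj), 1 from cells given siRNA against GFP (siGFP), and 2 labelled Plain, whose treatment the labels do not state further. The strongest 3000 summits of each list were used, which makes 12000 of the 21722 H3K4me3 summits in these lists and of the 75034 summits of all 8 histone mark libraries in the series. A gene start was called lost where siGFP and both Plain libraries had one of these summits within 1 kb and siTj had none. It was called kept where all 4 libraries had one, and gained where siTj had one and no other library did. Of 16322 gene starts on the main chromosomes, 674 were lost, 2778 were kept and 234 were gained. A further 1132 starts had another pattern, called mixed, and 11504 had no such summit in any library.

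Trimethylation of histone H3 at lysine 4 is laid down by the COMPASS family of methyltransferases around the starts of active and poised genes. In Cut&Run, an antibody directs a nuclease to the mark in unfixed nuclei, and the released fragments are sequenced. Traffic jam is a large Maf transcription factor of somatic gonad cells, and in the ovarian soma the Piwi pathway silences transposons with small RNAs from the flamenco cluster, which the long RNA tables list as flam. The comparison bears on which promoters carry the mark when Traffic jam is depleted. In the same series, long RNA was measured in OSS cells after the same siRNAs, with 3 libraries each for siTj and siGFP, and Traffic jam (TJ) binding was measured by chromatin immunoprecipitation in OSS cells. The long RNA fit also held 3 libraries each with siRNA against Piwi (siPiwi) and against Ci, so that 12 libraries shared 1 estimate of the spread.

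The siTj library stood apart from its controls before any gene was considered. Its list held 3134 summits, against 6255 in siGFP, 6384 in Plain 1 and 5949 in Plain 2. The authors' summit score, a −log10 q that ranks summits only within a list, had a median of 5.15 in siTj, 19.0 in siGFP, 85.1 in Plain 1 and 18.5 in Plain 2. At rank 3000 the score was 1.83 in siTj, close to the lowest score of any of these lists, 1.303, and it was 20.4 in siGFP, 93.9 in Plain 1 and 18.4 in Plain 2. In siTj the last gene inside the limit was CG3368 with a score of 1.83 and the first outside was ida with 1.81, while in siGFP dco inside and Rbf outside both had 20.4. Of the strongest 3000 summits, 82.5% lay within 1 kb of a gene start in siTj, against 95.5% in siGFP, 97.5% in Plain 1 and 94.5% in Plain 2. Among the strongest 50 summits of siTj only 2 lay at a gene start and 25 lay on chromosome arm 3L, whereas 42 of 50 in siGFP, 49 in Plain 1 and 37 in Plain 2 lay at a gene start. The median summit lay 173 bp downstream of the start in siTj, 144 bp in siGFP, 143 bp in Plain 1 and 153 bp in Plain 2. The number of reads behind each Cut&Run list is unknown, and the knockdown is represented by 1 library, so the differences between summit lists have no replicate check and no test. The part of list length and depth in the losses described here cannot be told apart from that of the knockdown.

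**Figure D1:**
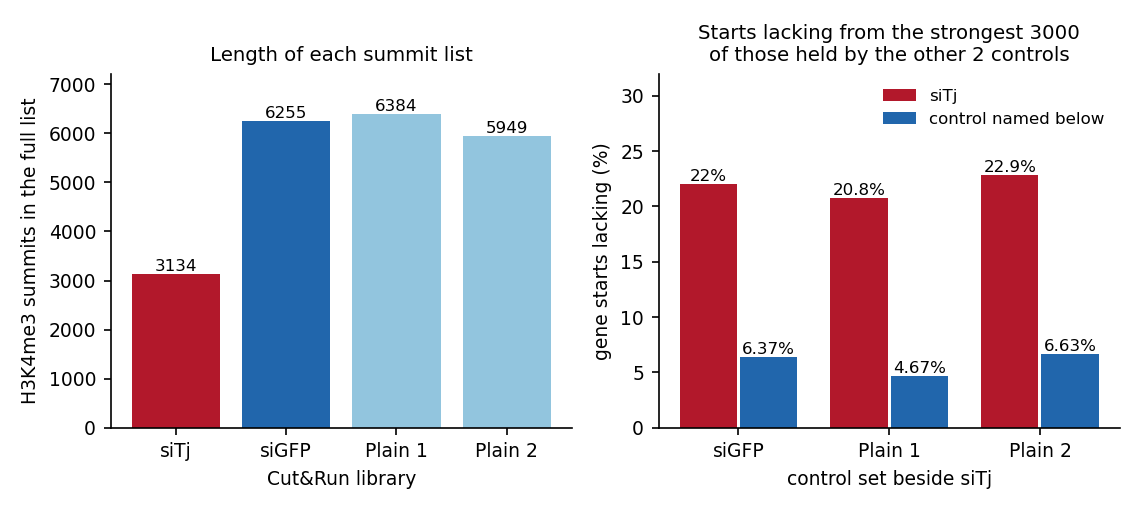
Bars in the left panel give the number of H3K4me3 summits in the full list of each Cut&Run library. Bars in the right panel give, for each control, the percentage of gene starts held by the other 2 controls that siTj (red) and that control (blue) lack among their strongest 3000 summits, which is 20.8% to 22.9% for siTj and 4.67% to 6.63% for the controls.

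Gene starts marked in the controls were lacking from siTj more often than from another control. Of 3452 starts held by siGFP and both Plain libraries, siTj lacked 674, which is 19.5%. To set siTj beside a control over the same starts, those held by the other 2 controls were taken. Of 3687 starts held by both Plain libraries, siTj lacked 812, or 22.0%, and siGFP lacked 235, or 6.37%. Of 3621 starts held by siGFP and Plain 2, siTj lacked 752, or 20.8%, and Plain 1 lacked 169, or 4.67%. Of 3697 starts held by siGFP and Plain 1, siTj lacked 845, or 22.9%, and Plain 2 lacked 245, or 6.63%. Of the 674 lost starts, 645 had no siTj summit of any rank within 1 kb and 29 had one below rank 3000. In the same 3 comparisons, siTj had no summit of any rank at 778, 717 and 815 starts, against 12 for siGFP, 53 for Plain 1 and 17 for Plain 2. The full siTj list held 3134 summits and so reached little past rank 3000, while the control lists held 5949 to 6384. A start outside the strongest 3000 could therefore seldom be listed in siTj, so absence at any rank is no separate measure of loss.

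The losses followed the strength of the summits in the controls. Among starts with a mean control rank up to 500, 17 of 659 were lost, or 2.58%. The share was 13.9% between ranks 1000 and 1500, 45.4% between 2000 and 2500, and 59.7% between 2500 and 3000, where 83 of 139 starts were lost. The median of the mean control rank was 1923 for lost starts and 1019 for kept starts. Within the 1030 starts whose rank was 1000 or better in every control, 40 were lost, and 39 of these were absent from the full siTj list. Lost starts were thus mostly those of weaker summits, and a small group had strong summits in every control.

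**Figure D2:**
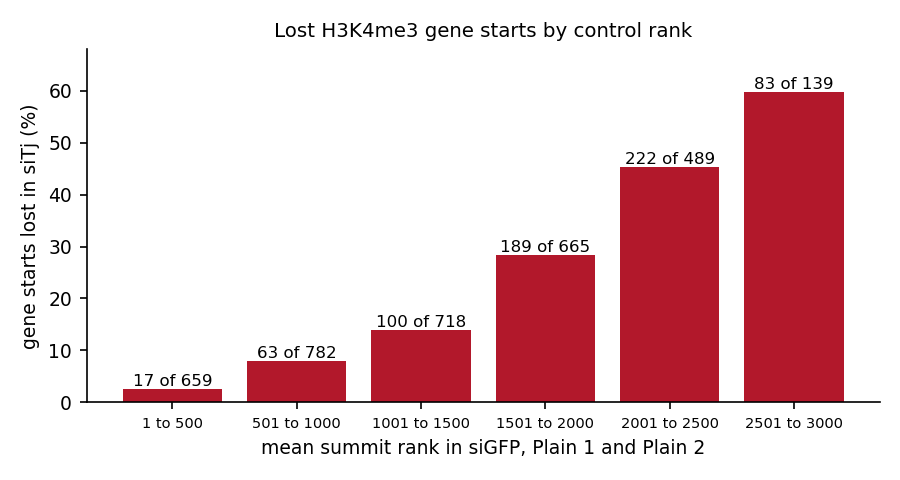
Each bar gives the percentage of gene starts lost in siTj among starts held by all 3 controls, by the mean rank of the summit in siGFP, Plain 1 and Plain 2, with the counts above the bars. The share rises with each step of rank, with 2.58% in the strongest class and 59.7% in the weakest.

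Neighbouring genes shared summits, so that gene starts were not independent units. The 674 lost starts rested on 453 siGFP summits, the 2778 kept starts on 1693 and the 234 gained starts on 148 siTj summits. A summit was shared with another gene start for 68.2% of lost, 75.6% of kept and 56.0% of gained starts. Of the 453 summits behind lost starts, 35 also served a kept start. For 87 lost starts the nearest siTj summit lay between 1 and 2 kb away, and 558 lost starts had no siTj summit of any rank within 2 kb, of which 374 had none within 5 kb.

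Ranks of kept starts within the siTj list are given as a description, since the lists differ in length and make-up. Relative to all 3 control ranks, 249 of 2778 kept starts, or 8.96%, ranked more than 1000 places lower in siTj, and 44, or 1.58%, ranked more than 1000 places higher. The same measure within the controls gave 37 starts ranked lower in siGFP, 14 in Plain 1 and 56 in Plain 2 than in the other two. Of the 249 kept starts ranked lower, 244 had RNA tested, with a median log2 fold change of −0.22 without pairing, and the paired fit of edgeR called 5 lower and 0 higher. That fit called 1.45% lower and 2.06% higher over all genes tested.

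The lost start with the strongest control summits by mean rank was l(1)1Bi, with ranks of 91 in siGFP, 103 in Plain 1 and 190 in Plain 2 and no siTj summit within 1 kb. It shares its siGFP summit with RpL36, a ribosomal protein gene that was kept at rank 1037 in siTj and 91 in siGFP, and the nearest siTj summit lay 1041 bp from the start of l(1)1Bi. ATPsynbeta, the catalytic subunit of the mitochondrial ATP synthase, mip120, a subunit of the Myb-MuvB complex, and CG45049 were of the same kind: the nearest siTj summit lay 1086, 1412 and 1051 bp from their starts. The start and end of ATPsynbeta differ between the tables, so its position is uncertain. In these 4 cases the siGFP summit also served a kept start, so the call rested on the 1 kb limit.

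Other strong losses had no siTj summit nearby. eIF3-S8, a subunit of translation initiation factor 3, ranked 377 in siGFP, 189 in Plain 1 and 377 in Plain 2, and the nearest siTj summit lay 4575 bp away. RPA2, a subunit of the single-stranded DNA binding complex RPA, ranked 465, 279 and 384 in siGFP, Plain 1 and Plain 2, and its nearest siTj summit lay 96905 bp away. The divergent pair Ranbp21, a nuclear export receptor, and CG14215 shared a summit ranked 556, 186 and 222 in the same libraries. The pair mus301, a DNA repair helicase, and CG7504 shared one ranked 467, 130 and 544. Of the 40 lost starts with ranks of 1000 or better in all controls, 29 had no siTj summit within 2 kb. The long RNA of all 40 was tested, with a median log2 fold change of −0.14 without pairing, and the paired fit of edgeR called 0 lower and 1, bmm, higher. Such calls made up 1.45% and 2.06% of all genes tested. eIF3-S8 had 940, 595 and 868 CPM (read counts scaled to library size by TMM) in siTj and 824, 908 and 918 CPM in siGFP, which overlapped. RPA2 had 70.2, 73.2 and 85.3 CPM in the siTj libraries and 101.0, 89.5 and 114.5 CPM in the siGFP libraries, which did not overlap, and it did not pass the test in either fit.

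The start of tj itself kept its summit. It ranked 56 in siTj, 26 in siGFP, 2 in Plain 1 and 9 in Plain 2, and its gene lies on chromosome arm 2L, positions 19464267 to 19467758, on the plus strand. The nearest summit lay 170 bp from the start in siTj, against 467 bp in siGFP, 713 bp in Plain 1 and 604 bp in Plain 2. The long RNA of tj was at 570, 218 and 594 CPM in the siTj libraries and 2031, 1105 and 1212 CPM in the siGFP libraries. All 3 siTj values lay below all 3 siGFP values. The log2 fold change was −1.66 ± 0.61 (SE) with edgeR's adjusted p of 0.533 without pairing, and −1.72 ± 0.32 with an adjusted p of 0.0198 in a paired fit, which adds a term for the replicate number shared by the siRNA groups. Leaving out siTj 1 ended the call in the paired fit, at an adjusted p of 0.0830. The targeted RNA was thus lower in each siTj library while the mark at its start remained among the strongest summits.

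The other kept starts of highest siTj rank included neighbouring genes for which a single summit served both. CG15168 and Swip-1 shared a summit ranked 41 in siTj, 9 in siGFP, 8 in Plain 1 and 23 in Plain 2. CG31636 and CG11070 had ranks of 54 in siTj and 250, 225 and 82 in the controls, and CG31638 and CG9548 had 55 in siTj and 1055, 196 and 219. CG13751 and MrgBP, a subunit of the Tip60 acetyltransferase complex, ranked 57 in siTj, and Rca1, a regulator of cyclin A, ranked 60. Rank 41 was the highest of any kept start in siTj.

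Gained starts were fewer, and most of them had a weaker summit in a control list. The 234 gained starts were 6.90% of the 3392 starts held by siTj. Set against the same 2 controls, 7.72% of the starts of siTj and 3.11% of those of siGFP were in neither Plain library. In neither siGFP nor Plain 2 were 8.58% of the siTj and 5.89% of the Plain 1 starts, and in neither siGFP nor Plain 1 were 7.87% of the siTj and 2.85% of the Plain 2 starts. A summit of any rank was present in all 3 control lists for 161 gained starts and in none for 29. Of these 29, 18 had a siGFP summit between 1 and 2 kb away, and 10 gained starts had no control summit within 2 kb. Copies of histone genes accounted for 37 gained starts at 3 positions, which rested on 2 siTj summits, and reads of near-identical copies may not be told apart. Without them, 27.4% of the 197 other gained starts lay on arm 2L, against 19.95% of all starts.

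The highest gained start was Trip1, a subunit of translation initiation factor 3, with a siTj summit at rank 98 and 302 bp from the start. The nearest control summits lay 1020 bp away in siGFP, 1010 bp in Plain 1 and 1013 bp in Plain 2, so this gain too was a matter of the 1 kb limit. CG34179 was similar, with 258 bp in siTj and 1069 to 1109 bp in the controls. scramb1, a phospholipid scramblase gene, ranked 664 in siTj and 3687, 3052 and 3050 in siGFP, Plain 1 and Plain 2. robl, a dynein light chain gene, shared a summit with robls54B that ranked 686 in siTj and 4573, 4205 and 4515 in the controls. The long RNA of Trip1 was at 127, 98.9 and 147 CPM in siTj and 134, 136 and 147 CPM in siGFP, and that of scramb1 at 48.9, 63.8 and 61.7 CPM in siTj and 26.9, 44.0 and 56.4 CPM in siGFP. The groups overlapped for both genes.

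Ets21C was the gained start furthest from any control summit among the genes named here. It encodes an ETS transcription factor of the stress response, and it lies on arm 2L, positions 544925 to 552454, on the minus strand. The siTj summit had rank 2424 and lay 603 bp from the start, and the nearest control summits lay 7330 bp away in siGFP, 7309 bp in Plain 1 and 7268 bp in Plain 2. Long RNA of Ets21C was at 497, 515 and 271 CPM in siTj and 142, 174 and 66.5 CPM in siGFP, with no overlap. The log2 fold change was 1.74 ± 0.59 without pairing, with edgeR's adjusted p of 0.462, and 1.81 ± 0.31 in the paired fit, with an adjusted p of 0.0153. That call was lost without siTj 1, siTj 3 or siGFP 1, at adjusted p up to 0.0779.

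Long RNA was tested for 10724 genes. Depth was 14001226 to 32380236 unique sense reads in the siTj libraries and 9075806 to 54359738 in the siGFP libraries. Reads on the antisense strand made up 4.07% to 5.08% in 10 of the 12 OSS libraries, 12.4% in siPiwi 2 and 9.28% in siTj 2, so siTj 2 stood apart. Whether the 3 replicates of a group came from different cultures is not in the labels, so the p-values speak of the spread among these libraries, part of which may be technical. Without pairing, edgeR called 5 genes lower after siTj, 0.0466% of those tested, and 0 higher, which is 0% of them, while 788 genes had an unadjusted p below 0.05. DESeq2 called 97 lower, or 0.905%, and 113 higher, or 1.05%. The paired fit of edgeR called 156 lower, or 1.45%, and 221 higher, or 2.06%. Leaving out 1 siTj or siGFP library moved these paired counts to as few as 31 lower and 7 higher, without siGFP 1, and as many as 206 and 152, without siTj 2.

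None of the 5 genes called without pairing had a lost or kept start. They were mael, a nuclear factor of Piwi silencing, dec-1, an eggshell gene, alpha-Est9, an esterase gene, CG17732 and CG4325. mael had 35.7, 34.3 and 33.6 CPM in siTj and 153, 121 and 151 CPM in siGFP, and dec-1 had 44.4, 106 and 126 CPM in siTj and 623, 696 and 482 CPM in siGFP. Neither gene overlapped between groups. Their log2 fold changes without pairing were −2.04 ± 0.27 and −2.71 ± 0.39, each with an adjusted p of 0.0431 in edgeR. Leaving out 1 siTj or siGFP library left 0 to 2 genes called without pairing, while the paired fit called all 5 in each case. Within 1 kb of their starts no summit of any rank was listed in any library, except for alpha-Est9, which had one at rank 4514 in Plain 1.

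Few gene starts that lost their summit had RNA called as changed. In simulated counts, changes of 2-fold were recovered at 0% without pairing and 18% when paired, so a gene not called may have changed. Without pairing edgeR called 0 lost, 0 kept and 0 gained starts, with 9 lower and 10 higher of the lost, 21 and 40 of the kept and 3 and 16 of the gained at an unadjusted p below 0.05. Of 634 lost starts with RNA tested, the paired fit called 5 lower, or 0.789%, and 3 higher, or 0.473%, against 1.45% and 2.06% over all genes. Without 1 library, the 5 lower lost starts became 2 without siTj 1, siTj 3 or siGFP 1 and 3 without siGFP 2. Of 2671 kept starts the paired fit called 26 lower, or 0.973%, and 13 higher, or 0.487%. Of 174 gained starts it called 1 lower, or 0.575%, and 9 higher, or 5.17%. With DESeq2 the counts were 2 lower and 2 higher of the lost, 12 and 4 of the kept, and 1 and 3 of the gained. Without siPiwi 2 and siTj 2, the paired fit called 15 lower and 9 higher of 631 lost starts, 47 and 23 of 2651 kept, and 3 and 11 of 169 gained, against 435 and 309 of 9958 genes.

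The median log2 fold change of long RNA, siTj over siGFP, was −0.22 at lost, −0.16 at kept and −0.15 at gained starts, against 0.08 over all genes tested and 0.60 at starts with no summit. The quartiles were −0.50 and 0.11 at lost starts and −0.43 and 0.14 at kept starts, so the distributions overlapped. These medians depended on siTj 2: without it, they were −0.11 at lost, −0.09 at kept and −0.11 at gained starts, −0.16 at starts with no summit and −0.12 over all genes. The scaling by DESeq2 size factors moved the median of all genes to 0.13 and that of lost starts to −0.19. Median RNA levels were 44.1 CPM in siTj and 49.8 CPM in siGFP at lost starts, 59.4 and 67.3 CPM at kept starts, and 11.9 and 13.3 CPM at gained starts, in the same order of groups.

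**Figure D3:**
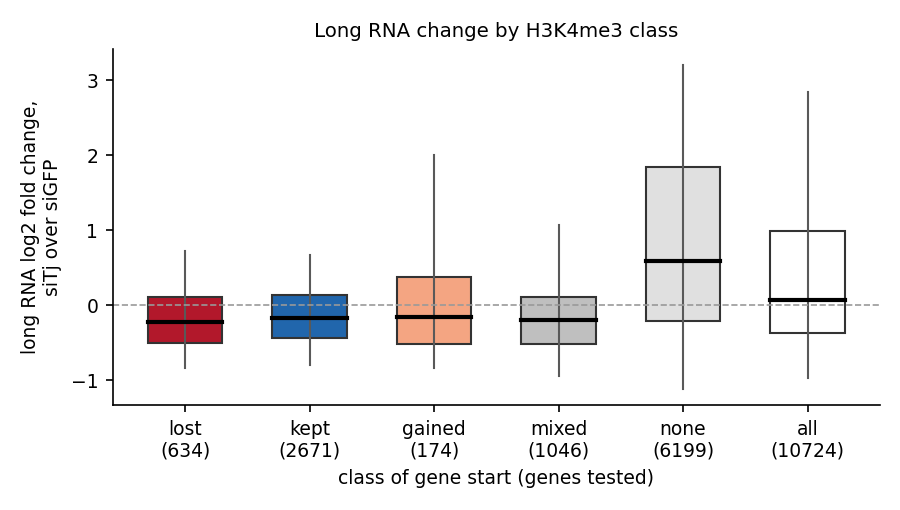
Boxes span the quartiles and lines the central 90% of the long RNA log2 fold change, siTj over siGFP, in edgeR's fit without pairing, with the median as a thick bar and the number of genes tested under each class. The medians of lost, kept and gained starts lie between −0.22 and −0.15, and that of starts with no summit at 0.60, which was −0.16 without siTj 2.

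The share of starts lost was lower where the RNA level in siGFP was higher. Among starts held by all controls, 27.2% of 213 were lost below 1 CPM, 22.1% of 253 from 1 to 10 CPM, 20.1% of 1719 from 10 to 100 CPM, 17% of 1200 from 100 to 1000 CPM, and 14.9% of 67 at 1000 CPM or more. The median control rank was 1317 in the class below 1 CPM and 929.7 in the class above 1000 CPM, and its part in the order was not tested.

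The lost starts whose RNA was called as changed in the paired fit were 8. The RNA of armi, a helicase of Piwi-interacting RNA (piRNA) production, was at 278, 207 and 450 CPM in siTj and 1489, 1201 and 2902 CPM in siGFP. Every siTj value was below every siGFP value. The log2 fold change was −2.55 ± 0.31, with edgeR's adjusted p at 0.00499 in the paired fit and at 0.267 without pairing, and the paired call held in all 6 fits that each left out 1 siTj or siGFP library. The start of armi, on arm 3L at position 3461317, had summits of rank 2137 in siGFP, 1762 in Plain 1 and 1463 in Plain 2. It shares the siGFP summit with eIF5B, a translation factor gene whose start was kept at rank 2005 in siTj, and the nearest siTj summit lay 1028 bp from the start of armi. The RNA of eIF5B averaged 897.6 CPM in siTj and 976 CPM in siGFP. The loss at armi thus rested on a siTj summit placed towards eIF5B.

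The RNA of nom and Top3beta was also lower. nom had 53.8, 7.08 and 39.4 CPM in siTj and 269, 57.9 and 119 CPM in siGFP, with a log2 fold change of −2.35 ± 0.33 and edgeR's adjusted p of 0.00867 in the paired fit, against 0.646 without pairing. All 3 siTj values lay below all 3 siGFP values, and the paired call held in all 6 fits without 1 library. A TJ peak covered its start. Top3beta, a topoisomerase that acts on RNA as well as DNA, had 426, 260 and 386 CPM in siTj and 879, 663 and 757 CPM in siGFP, with no overlap. Its log2 fold change was −1.13 ± 0.21, with edgeR's adjusted p at 0.0198 in the paired fit and at 0.374 without pairing. A TJ peak also covered the start of Top3beta, whose summit ranked 1130 in siGFP, 623 in Plain 1 and 707 in Plain 2.

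Ndc80, a kinetochore gene, and Tango5, a gene of Golgi organisation, completed the lost starts with lower RNA. Ndc80 had 46.1, 18.7 and 69.3 CPM in siTj and 98.1, 62.8 and 128 CPM in siGFP, and the groups overlapped. Tango5 had 138, 100.3 and 154 CPM in siTj and 443, 221 and 281 CPM in siGFP, without overlap, and its bounds differ between the tables. Their log2 fold changes in the paired fit were −1.24 ± 0.27 and −1.20 ± 0.27. Of the 6 fits that each left out a library, 1 still called Ndc80, and 2 each called Tango5 and Top3beta, with adjusted p up to 0.0946, 0.133 and 0.0756 in edgeR. All 3 calls ended without siTj 1, siTj 3, siGFP 1 or siGFP 2, and that of Ndc80 also without siTj 2.

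RNA was higher at 3 lost starts. bmm, the Brummer triglyceride lipase, had 73.6, 230 and 37.8 CPM in siTj and 9.03, 11.2 and 8.53 CPM in siGFP. Each siTj value was above each siGFP value, and siTj 2 was the highest. The log2 fold change was 3.0 ± 0.67 in the paired fit, with edgeR's adjusted p of 0.0356, and 3.57 ± 1.02 without pairing, with an adjusted p of 0.328. Its start shared a summit with Tdrd3, the partner protein of Top3beta, at ranks 379, 468 and 727 in siGFP, Plain 1 and Plain 2. Tdrd3 RNA averaged 282.5 CPM in siTj and 264 CPM in siGFP. CG15117 had 31.3, 48.2 and 23 CPM in siTj and 10.3, 12.2 and 11.4 CPM in siGFP, with a log2 fold change of 1.54 ± 0.33, and its bounds differ between the tables. PRL-1, a phosphatase gene, had 100, 235 and 107 CPM in siTj and 33.9, 75.9 and 56.8 CPM in siGFP, with a log2 fold change of 1.35 ± 0.24. The call of bmm in the paired fit held only without siGFP 3, that of CG15117 in none of the 6 fits and that of PRL-1 without siTj 2 or without siGFP 3, with edgeR's adjusted p otherwise up to 0.137, 0.280 and 0.212. The nearest siTj summit lay 1015 bp from the start of PRL-1. Its siGFP summit, at rank 586, also served the kept start of EndoGI, at rank 2935 in siTj. The loss at PRL-1 thus rested on the 1 kb limit.

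**Figure D4:**
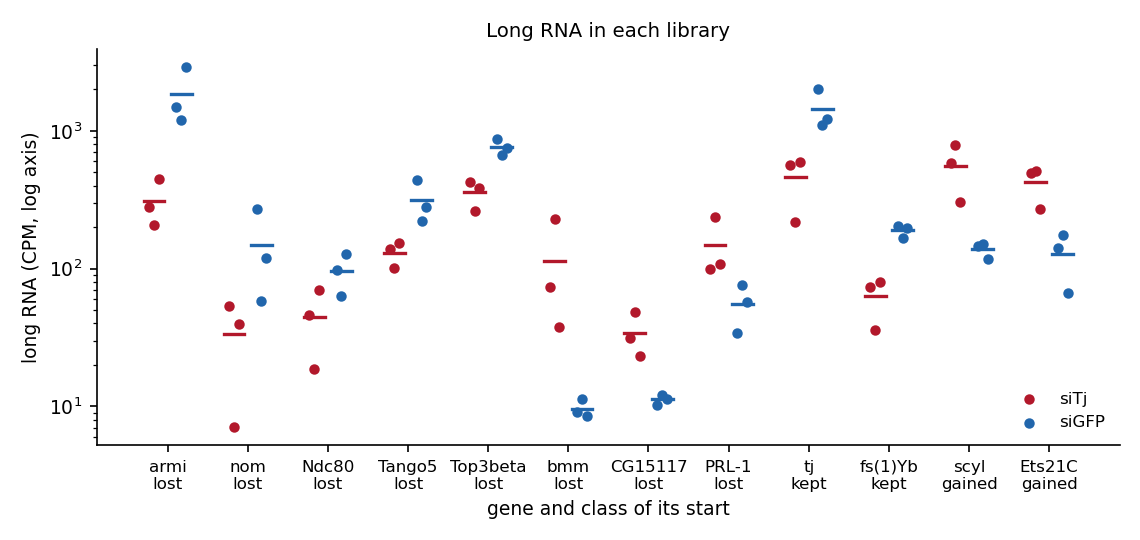
Points give the long RNA level of each library in CPM on a log axis, siTj in red to the left of siGFP in blue, with bars at the means of 3 libraries, for lost, kept and gained starts called in the paired fit. For armi the siTj libraries lie between 207 and 450 CPM and the siGFP libraries between 1201 and 2902 CPM, while bmm is higher in siTj, at 37.8 to 230 CPM against 8.53 to 11.2 CPM.

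Kept starts also included genes whose RNA fell. dob, a lipase gene related to bmm, had 24.2, 16.1 and 14.4 CPM in siTj and 151, 64.5 and 60.9 CPM in siGFP, with a log2 fold change of −2.21 ± 0.35 and edgeR's adjusted p of 0.0111 in the paired fit. Its summit ranked 1536 in siTj, 753 in siGFP, 876 in Plain 1 and 311 in Plain 2. The kept start of opm shared this summit, with RNA averaging 82.0 CPM in siTj and 79.6 CPM in siGFP. A shared summit cannot be assigned to either gene alone. CG9149 had 63.2, 63 and 50.03 CPM in siTj and 316, 207 and 252 CPM in siGFP, with a log2 fold change of −2.10 ± 0.23 and ranks of 127 in siTj and 271, 373 and 173 in the controls. A TJ peak covered its start. Its summit was shared with the kept start of Rac1, whose RNA averaged 134 CPM in siTj and 143 CPM in siGFP. RpIII128, a large subunit of RNA polymerase III, had 11.8, 12.5 and 22.2 CPM in siTj and 49.4, 65.9 and 72.9 CPM in siGFP, with a log2 fold change of −2.08 ± 0.33. The paired calls of dob, CG9149 and RpIII128 held in all 6 fits without 1 library, and their adjusted p without pairing in edgeR was 0.322, 0.0508 and 0.229.

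fs(1)Yb, which organises the perinuclear bodies of piRNA production, was kept with lower RNA. It had 73.2, 35.6 and 79.8 CPM in siTj and 203, 168 and 199 CPM in siGFP, with a log2 fold change of −1.70 ± 0.33 and an adjusted p in edgeR of 0.0222 when paired and 0.349 without pairing. The paired call was lost without siTj 1, siTj 3 or siGFP 1, at adjusted p up to 0.0678. Its summit ranked 1987 in siTj, 817 in siGFP, 1605 in Plain 1 and 1422 in Plain 2, and a TJ peak lay 6 bp from the start. The kept start of CG2701 shared this summit, with RNA averaging 76.0 CPM in siTj and 93.6 CPM in siGFP.

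Of the 13 kept starts with higher RNA in the paired fit, the 5 with the largest fold change follow. NAT1, a translation factor related to eIF4G, had 2294, 2979 and 1090 CPM in siTj and 1162, 1161 and 343 CPM in siGFP, and the groups overlapped. The log2 fold change was 1.36 ± 0.29 for NAT1, 1.34 ± 0.27 for mbc, a regulator of Rac signalling, and 1.32 ± 0.29 for RasGAP1, which turns off Ras. It was 1.29 ± 0.24 for CG2991 and 1.23 ± 0.26 for Tgi, a repressor in the Hippo pathway. Adjusted p in edgeR's paired fit ranged over these genes with a low of 0.0194 for CG2991 and a high of 0.0324 for NAT1, and without pairing none was below 0.218. None of the calls of NAT1 and RasGAP1 held when 1 siTj or siGFP library was left out, and those of mbc and CG2991 held only without siTj 2 and that of Tgi only without siGFP 3. The summits of mbc, CG2991 and Tgi were shared with other kept starts.

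Gained starts with higher RNA in the paired fit were 9. Beside Ets21C, these were scyl, an inhibitor of TOR signalling, CG1572, CG12655, cib, an actin-binding protein, Tollo, a Toll family receptor, Vinc, the adhesion protein Vinculin, Myo31DF, a class I myosin, and blow, a gene of myoblast fusion. scyl had 586, 786 and 302 CPM in siTj and 145, 152 and 117 CPM in siGFP, with a log2 fold change of 1.87 ± 0.43, and its summit ranked 2882 in siTj and 3706, 3962 and 5304 in siGFP, Plain 1 and Plain 2. CG1572 had 7.93, 22.1 and 30.03 CPM in siTj and 0.371, 1.40 and 1.66 CPM in siGFP, with a log2 fold change of 4.15 ± 0.71. For both genes the groups did not overlap. The log2 fold changes of the other genes ran between 0.94 ± 0.20 for Myo31DF and 1.59 ± 0.26 for CG12655. Adjusted p over the 9 genes was 0.0116 to 0.0377 in edgeR's paired fit and 0.251 to 0.585 without pairing. The bounds of cib and Vinc differ between the tables.

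These calls depended on single libraries. That of CG1572 was lost without siTj 3 or siGFP 1, at adjusted p up to 0.0816 in edgeR, and that of CG12655 without siTj 1, siGFP 1 or siGFP 2, at up to 0.112. The call of scyl held only without siGFP 3, those of cib and blow only without siTj 2, and those of Tollo, Vinc and Myo31DF in none of the 6 fits. With 1 siTj or siGFP library left out, edgeR's paired fit called 0 to 7 gained starts higher, with 0 without siGFP 1 and 7 without siTj 2, and the fit without pairing called 0. CG5946 was the gained start with lower RNA, at 39.2, 31.2 and 47.9 CPM in siTj and 127, 103 and 194 CPM in siGFP, with a log2 fold change of −1.79 ± 0.31 and edgeR's adjusted p at 0.0151 in the paired fit and at 0.328 without pairing. The paired call of CG5946 was lost without siGFP 1, at 0.0532. It shares its summit with CG11597, and its bounds differ between the tables.

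Marked genes of somatic piRNA production had both strong and weak control summits, and the losses of armi and vret lay at the limits of distance and rank. Of 13 listed genes 6 had summits in all controls, and 4 of these were lost, against 19.5% of all such starts. Their median control rank was 1778, in a range of ranks where 28.4% of starts were lost. Besides armi, vret, a Tudor protein of piRNA production, was listed at rank 3101 in siTj, just past the limit, against 1845 in siGFP, 1868 in Plain 1 and 1594 in Plain 2. Nbr, an exonuclease that trims small RNAs, ranked 2240, 1894 and 2690 in the controls, and CG10880, which the reference table names daed, ranked 1613, 2670 and 2132. zuc, the endonuclease that cuts piRNA precursors, was kept at ranks 95 in siTj, 138 in siGFP, 129 in Plain 1 and 100 in Plain 2. This summit was shared with the kept starts of dgt2 and escl. The summits of vret and Nbr were shared with the lost starts of HP1c and CG9246. Other list members also shared summits with neighbouring starts, and not all of these neighbours are named. RNA passed the paired test at 3 of the 13 genes, all lower: armi, fs(1)Yb and shu. Over all genes tested, 1.45% were called lower and 2.06% higher.

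Long RNA of vret was at 39.1, 27.8 and 45.7 CPM in siTj and 43.2, 43.5 and 40.4 CPM in siGFP, and the groups overlapped. Nbr had 33.2, 13.8 and 35.2 CPM in siTj and 42.1, 46.1 and 55 CPM in siGFP, without overlap, and did not pass the test. piwi itself had no siTj summit within 1 kb and ranked 4195 in siGFP, 3551 in Plain 1 and 3523 in Plain 2, below the strongest 3000. Its RNA was at 120.1, 170 and 313 CPM in siTj and 721, 661 and 902 CPM in siGFP, with no overlap and a log2 fold change of −2.0 ± 0.38 in the paired fit, where edgeR's adjusted p was 0.0216, against 0.299 without pairing. A TJ peak lay 120 bp from the start of piwi. For flam a summit was listed in Plain 1 alone, at rank 5373, and its RNA was at 122, 204.6 and 202 CPM in siTj and 694, 464 and 1186 CPM in siGFP, with a log2 fold change of −2.03 ± 0.36 and edgeR's adjusted p at 0.0161 in the paired fit and at 0.288 without pairing. A TJ peak lay 235 bp from the start of flam. The paired calls of piwi and flam were lost without siTj 1 or siGFP 1, at adjusted p up to 0.0830 and 0.0582.

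Of 6 genes of piRNA-guided nuclear silencing with summits in all controls, 1 was lost, against 19.5% of all such starts. The median control rank of the 6 was 1091, in a range of ranks where 13.9% of starts were lost. The lost gene was egg, the H3K9 methyltransferase Eggless, with ranks of 2507, 2301 and 1954 in siGFP, Plain 1 and Plain 2. Kept were nxf2 and Nxt1, partners in co-transcriptional silencing, Su(var)205, which encodes HP1a, Su(var)2-10, whose bounds differ between the tables, and HDAC1. The RNA of nxf2 averaged 29.1 CPM in siTj and 92.1 CPM in siGFP, with a log2 fold change of −1.69 ± 0.21 and edgeR's adjusted p at 0.00499 in the paired fit and at 0.212 without pairing, and the paired call held without any 1 library. Its summit ranked 925 in siTj and 1308, 667 and 292 in the controls. The kept start of Smn shared this summit, with RNA averaging 25.5 CPM in siTj and 38.3 CPM in siGFP. Su(var)205 averaged 407 CPM in siTj and 783 CPM in siGFP, with a log2 fold change of −0.93 ± 0.22 and edgeR's adjusted p of 0.0438 in the paired fit, a call that held only without siTj 2. In this list of 17 genes, of which 14 were in the tables, the paired fit called 4 lower and 0 higher, against 1.45% and 2.06% over all genes, and 5 had an unadjusted p below 0.05 in it.

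Of 12 genes that write or erase H3K4 methylation and had summits in all controls, 11 were kept and 1, or 8.33%, was lost, against 19.5% over all such starts. The median control rank of the 12 was 1322, in a range of ranks where 13.9% of starts were lost. The lost gene was ash2, a subunit shared by COMPASS complexes, with ranks of 1876, 1735 and 2388 in siGFP, Plain 1 and Plain 2. Its summit was shared with the lost start of puf. The methyltransferase gene Set1 ranked 424 in siTj and 1620, 856 and 1304 in the controls, with bounds that differ between the tables, and the demethylase gene lid ranked 164 in siTj and 18, 183 and 15. Utx, a demethylase of another lysine in the trr complex, was gained, at rank 2887 in siTj and 3783, 3868 and 3763 in the controls. None of the 18 genes passed in edgeR's paired fit (0 called, 4 with unadjusted p below 0.05) or in DESeq2. ash2 RNA was at 79.1, 46.1 and 62.1 CPM in siTj and 38, 50.7 and 46.1 CPM in siGFP, which overlapped.

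Of 11 genes of replication and the cell cycle with summits in all controls, 5 were lost and 6 kept, with a median control rank of 1089. The share lost was 19.5% over all such starts and 13.9% in the rank class of that median. Orc1, a subunit of the origin recognition complex, ranked 720, 720 and 300 in siGFP, Plain 1 and Plain 2, and a TJ peak covered its start. Mcm5, a subunit of the replicative helicase, ranked 826, 776 and 587, and Mcm3 1983, 1027 and 403. dpa, the Mcm4 gene, ranked 2176, 494 and 912, and CycB, the mitotic cyclin B, 1080, 970 and 1316. The summits of Mcm5 and dpa were shared with the lost starts of Art1 and didum. Among the kept, PCNA, the replication clamp, ranked 2023 in siTj, against 526 in siGFP, 101 in Plain 1 and 99 in Plain 2. Its RNA averaged 239 CPM in siTj and 536.5 CPM in siGFP, with a log2 fold change of −1.11 ± 0.27 and edgeR's adjusted p of 0.0478 in the paired fit, a call that was lost without siTj 1, siTj 2, siGFP 1 or siGFP 2. No other gene of the 20 passed either fit, while the paired fit called 1.45% lower and 2.06% higher over all genes. Mcm5 had 123, 42.3 and 146 CPM in siTj and 163, 158 and 173 CPM in siGFP.

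Adhesion genes with summits in all controls were 4, and 3 were lost, against 19.5% of all such starts. The median control rank of the 4 was 1478, in a range of ranks where 13.9% of starts were lost. shg, the E-cadherin gene, had strong control summits at ranks 283, 529 and 408 in siGFP, Plain 1 and Plain 2, but the nearest siTj summit lay 1003 bp from its start, just past the limit, and belongs to the kept start of cpa at rank 405, against 283 in siGFP. alpha-Cat, the alpha-catenin gene, ranked 2447, 2069 and 2566, and mys, the beta integrin gene, 2252, 2865 and 1632, with a TJ peak over its start. alpha-Spec, the alpha-spectrin gene, was kept at ranks 837 in siTj and 822, 545 and 752 in the controls. shg RNA was at 290, 406 and 302 CPM in siTj and 510, 634 and 295 CPM in siGFP, and mys RNA at 907, 666 and 581 CPM in siTj and 617, 625 and 325 CPM in siGFP. The groups overlapped for both. Of 17 adhesion genes tested, edgeR's paired fit called 3 higher and 0 lower, and DESeq2 called 2. Over all genes the paired fit called 2.06% higher and 1.45% lower.

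In the Hedgehog list 3 of 6 such starts were lost and 3 kept, against 19.5% lost over all such starts. The median control rank of the 6 was 1232, in a range of ranks where 13.9% of starts were lost. ihog, a Hedgehog co-receptor, ranked 1166, 1501 and 1025 in siGFP, Plain 1 and Plain 2, and its nearest siTj summit lay 1209 bp away. Cul3, a ubiquitin ligase scaffold, ranked 2694, 2939 and 2078, and gish, a casein kinase gene, 1566, 2394 and 1254. The summit of gish was shared with the lost start of Mat89Ba. smo, the Hedgehog signal transducer, was kept at 539 in siTj and 734, 1817 and 1147 in the controls. cos and Su(fu), which restrain the transcription factor Ci, were kept at 263 and 445 in siTj. The RNA of ihog, Cul3 and gish passed neither fit, and in edgeR's paired fit 2 of 16 genes in the list were higher and 0 lower, against 2.06% and 1.45% over all genes, 7 had an unadjusted p below 0.05, and DESeq2 called 0. In the Wnt list arm, the beta-catenin gene, was lost and dsh was kept. The summit of arm was shared with the lost start of CR45929. Of 16 Wnt genes tested, the paired fit called 4 higher and 1 lower, and DESeq2 called 1.

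**Figure D5:**
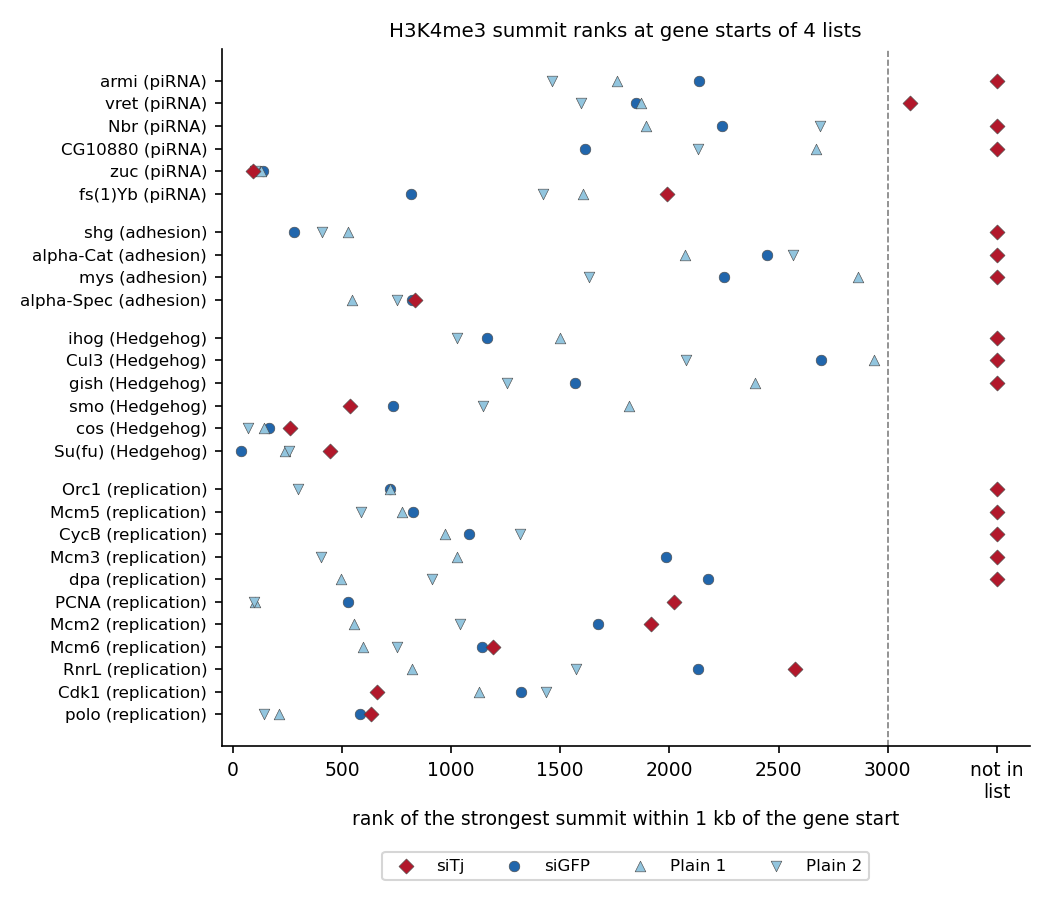
Each row is a gene start with summits among the strongest 3000 in all controls. The lists are piRNA production, adhesion, Hedgehog signalling, and replication and the cell cycle (labelled replication). Symbols give the rank of the strongest summit within 1 kb of the start in siTj (red diamonds), siGFP (circles), Plain 1 and Plain 2 (triangles), with starts absent from the full list at the right. Beyond the dashed line at rank 3000 only siTj has symbols, with vret at 3101 and the other lost starts not in the list.

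The remaining lists had few marked starts. All 5 housekeeping genes with summits in all controls were kept, and so were the 3 heat shock genes, among them Hsp83 at rank 366 in siTj and 1634, 1068 and 771 in siGFP, Plain 1 and Plain 2. ftz-f1, a nuclear receptor gene of the ecdysone response, was the only such start of its list and was lost, with control ranks of 2333, 2900 and 2646. Dark and bsk of the cell death list and maf-S and Sod of the antioxidant list were kept, and Cat, the catalase gene, was gained at rank 1766 in siTj with 5022 in siGFP and 4777 in Plain 1. edgeR's paired fit called 4 of 15 cell death genes and 2 of 12 antioxidant genes higher and 0 lower. It called 1 of 15 ecdysone genes lower and 0 higher, against 1.45% and 2.06% over all genes. Of 77 cytoplasmic ribosomal protein genes with summits in all controls, 5 were lost, or 6.49%, at a median control rank of 374, and of 46 mitochondrial ones 10 were lost, or 21.7%, at a median of 1337. These last lists were chosen after values had been seen. Summed RNA over the 16 heat shock genes was 17870, 21460 and 8716 CPM in the siTj libraries and 6900, 9771 and 5696 CPM in the siGFP libraries, which overlapped, with the siTj library the higher of each same-number pair. The median log2 fold change of the list was 4.06 without pairing and 2.85 in the paired fit, and 2.64 and 2.58 in the same fits without siTj 2. None of the 16 passed edgeR's test in either fit (0 called, 10 with unadjusted p below 0.05 without pairing and 9 when paired), and DESeq2 called 3. The part of these genes in the other results was not tested.

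Markers of other cell types had few summits. No gene of the hemocyte, muscle and fat body lists (8, 9 and 6 in the tables) had a summit in all controls. In the neuron list nSyb was gained at rank 2198 in siTj, with the nearest control summits 1202 to 1215 bp away. Of 10 germline markers 2, nos and zpg, were kept, with RNA at 0.530 and 0.572 CPM on average in siTj and 0.0775 and 0.243 CPM in siGFP. The summit of nos was shared with the kept start of CG11779, whose RNA averaged 56.6 CPM in siTj and 61.9 CPM in siGFP. Summed RNA over the hemocyte list was 294 to 554 CPM in the siTj libraries and 48.3 to 166 CPM in the siGFP libraries, and over the muscle list 313 to 329 CPM in siTj and 145 to 260 CPM in siGFP. Over the fat body list it was 0.488 to 18.4 CPM in siTj and 0.124 to 2.04 CPM in siGFP, and over the germline list 87.3 to 139 CPM in siTj and 78.6 to 147 CPM in siGFP. Mean levels were below 1 CPM for 2 of 8 hemocyte markers in siTj and 2 in siGFP, with He among them, for 1 of 9 muscle markers in siTj and 3 in siGFP, and for 3 of 6 fat body markers in siTj and 6 in siGFP. edgeR's paired fit called 2 of 7 hemocyte markers and 1 of 9 muscle markers higher and 0 lower. It called 1 of 8 germline markers lower and 0 higher, against 1.45% and 2.06% over all genes. The part of these cell types in the RNA results was not tested. In bulk RNA, fewer cells of a type and less RNA per cell cannot be told apart. Of the 8 somatic gonad markers, tj and fs(1)Yb were kept, and the list summed to 2225 to 3725 CPM in the siTj libraries and 4755 to 6436 CPM in the siGFP libraries. This sum includes tj, the siRNA target. The paired fit called 4 of the 8 lower, tj, piwi, flam and fs(1)Yb, and 0 higher, against 1.45% and 2.06% over all genes. zfh1, Fas3, Wnt4 and ptc were not called, and the sum does not speak for them alone.

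TJ binding was compared with the classes as a measure their rule did not use. The authors deposited 1 list of 1987 TJ peaks of 500 bp, and how the 3 ChIP libraries were joined is not given. Of 16322 gene starts, 1247, or 7.64%, lay within 1 kb of a peak. The share was 12.2% at lost starts (82 starts), 15.7% at kept starts (437) and 8.12% at gained starts (19). A peak covered the start itself at 7.42% of lost, 11.2% of kept and 2.56% of gained starts, against 3.98% of all. Within classes of mean control rank the direction was not uniform. The share was 15.9% at lost and 11.5% at kept starts between ranks 500 and 1000, and 13.5% and 11.2% between 2000 and 2500. It was lower at lost than at kept starts in the other classes, with 0 of 17 lost starts against 18.8% of kept starts up to rank 500, 10.0% against 17% between 1000 and 1500, 11.6% against 18.7% between 1500 and 2000, and 12% against 16.1% above 2500.

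Among starts with a TJ peak within 1 kb, the paired fit called 4 of 77 lost starts lower and 1 higher, 9 of 424 kept starts lower and 6 higher, and 53 of 1088 starts of any class lower and 28 higher. With or without a peak, 1.45% of all genes tested were called lower and 2.06% higher. The lost starts called lower with a peak were armi, whose peak lay 643 bp away, nom, Tango5 and Top3beta. The median log2 fold change without pairing was −0.26 at lost starts with a peak, −0.17 at kept starts with a peak and −0.14 at all starts with a peak.

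Genes whose RNA changed were set beside all genes tested by their summits. Of the 156 genes called lower in the paired fit, 114, or 73.1%, were in the class without summits among the strongest 3000, as were 180 of the 221 called higher, or 81.4%, against 57.8% of the 10724 genes tested. No summit of any rank in any control was listed for 80 of the lower, or 51.3%, and 159 of the higher, or 71.9%, against 42.8% of all tested. Of the 54 lower genes with a summit of any rank in all 3 controls, 22, or 40.7%, had none in siTj, as did 18 of 44 higher genes, or 40.9%, and 40.1% of all 5215 tested genes of this kind. The absence of a siTj summit was thus about as frequent among the changed genes as among all genes tested.

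H3K9me3, the mark of silenced chromatin, was rare at these starts in the H3K9me3 libraries of the same labels. A summit of H3K9me3 lay within 1 kb of 1 lost start in siTj, 4 in siGFP, 12 in Plain 1 and 2 in Plain 2, and of 1, 36, 43 and 19 kept starts in the same libraries. Over all gene starts the counts were 264 in siTj, 935 in siGFP, 974 in Plain 1 and 543 in Plain 2. The H3K9me3 lists held 8829 summits in siTj and 16939, 16420 and 11124 in the controls, so they too were shorter in siTj.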

How the data were processed

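As deposited by the authors, a Cut&Run list gives the position and the −log10 q of every summit. The long RNA came from libraries depleted of ribosomal RNA, per the labels, and their deposited tables give unique read counts for each gene on either strand. For the ChIP libraries 1 list of peak positions with no score was used. Per the submitters' processing notes, FastQC, Bowtie2, MACS2 and DESeq2 were used, with no role or version, and the genome build and the settings are not given in the sources used here. Gene starts were the 5' ends in the long RNA tables, and 93.4% of the 16274 matched to RefSeq Release 6 had the same start there. All value columns were matched to samples of the series (0 were not). The series' design text names siPiwi beside siTJ for Cut&Run, and the sample labels, used here, name siTj and siGFP.

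Summits were ranked by score within each list, and the strongest 3000 were joined to gene starts within 1 kb (1000 bp). A start takes its strongest summit. Differences between summit lists are descriptions, with 1 library per group or with Plain 1 and Plain 2 shown apart. The classification was run on simulated lists of 3000 summits each, with widely spaced starts and planted summits inside the 1 kb limit. This checked the coding of the rule, and not calls at shared summits, near the limits or with unequal lists.

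The test was edgeR's quasi-likelihood test (edgeR 4.0.16, R 4.3.3) on unique sense counts of the full gene locus, after filterByExpr and TMM, in 1 fit of 12 libraries, with Benjamini-Hochberg adjustment over all genes at 0.05. DESeq2 1.42.0 was an alternative. CPM are scaled by TMM. Each ± after a log2 fold change is its SE. Same-number libraries of the 4 siRNA groups deviated together in all 18 pairs (r 0.248 to 0.90, rule above 0.1), so a paired fit, with a replicate block, was set beside the other. The biological coefficient of variation was 0.76 without and 0.455 with pairing. In simulated counts for siTj against siGFP, changes of 2, 4, 8 and 16-fold were planted in 50 genes each. The fit without pairing, over 10371 genes, recovered 0%, 20%, 78% and 86% of them, with 0 false calls. The paired fit, over 10475 genes, recovered 18%, 64%, 98% and 98%, with 5. These shares describe the simulated counts alone. Recovery among the 10724 genes tested, in libraries that deviated together by replicate number, was not measured.

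Named genes were, in each class, the 10 of highest rank, by mean control rank for lost starts and by siTj rank for the others. Up to 5 in each direction with the largest log2 fold change among those called in the paired fit were added, then list members lost or gained with kept examples, and tj, piwi and flam. The 5 genes called without pairing, all 9 gained starts called higher and genes sharing a summit were named after their values were seen. Members and lists were chosen with earlier results of these data known. Start or end differed between OSS tables for 756 genes, called uncertain where named. The comparisons of siTj and a control over starts of the other 2 controls, and the shares of changed genes set beside all genes tested, were chosen after seeing the data. Fold changes are given for called genes, piwi and flam.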

Additional observations from a re-analysis of the deposited data

Results flagged for a closer look

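A signal outside the comparisons stood above its level in the controls. A summit of the H3K9me3 library with the same label lay within 1 kb of 10.7% of the strongest 3000 H3K4me3 summits of siTj, against 2.47% in siGFP, 2.03% in Plain 1 and 3.0% in Plain 2. The summits away from gene starts, 524 in siTj, 136 in siGFP, 74 in Plain 1 and 166 in Plain 2, had such a neighbour in 59.9%, 32.4%, 16.2% and 45.2% of cases.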

How the results depend on the processing

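The count of lost starts depended on how deep the lists were read. It was 674 at the strongest 3000 summits, and it was 357 with the strongest 1000, 2246 with full lists and 1019 with siGFP as the only control. Of the 674, 40 were also lost with the strongest 1000, 645 with full lists and 674 with siGFP alone. Which starts were lost thus changed with the cutoff. The count stayed within 1.5 times of 674 in the settings that follow. With the strongest 2000 it was 520, of which 198 were among the 674. At a distance of 500 bp it was 768, of which 479 were among the 674, and at 2 kb 718, of which 591 were. With as many summits as the shortest list it was 742 and with RefSeq starts 685. With summits within 1 kb merged it was 932, where the shortest list had 2726. Without 1 control library it was 752 to 845. Kept starts were 1725 with the strongest 2000, 673 with the strongest 1000 and 1848 at 500 bp, against 2778, and 2852 to 2875 without 1 control. Gained starts were 33 with full lists and 421 with siGFP alone, against 234, and 262 to 291 without 1 control. With 1 siTj library, leaving it out gave no value.

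Without pairing edgeR called 5 genes lower and 0 higher. The replicate block gave 156 and 221, DESeq2 97 and 113, DESeq2 with the block 529 and 723, edgeR with DESeq2 size factors 1 and 0, no filter on low counts 9 and 0, and the siTj and siGFP libraries alone 0 and 1, or 141 and 350 with the block. The block without siPiwi 2 and siTj 2 gave 435 and 309. Leaving out 1 siTj or siGFP library gave 0 to 2 lower and 0 higher without pairing. With the block it gave 35 lower and 34 higher without siTj 1, 206 and 152 without siTj 2, 46 and 54 without siTj 3, 31 and 7 without siGFP 1, 105 and 56 without siGFP 2, and 106 and 144 without siGFP 3. Lost starts called lower were 0 without pairing, 5 with the block, 2 with DESeq2, 26 with DESeq2 and the block, 6 with the block on 6 libraries and 15 with the block without siPiwi 2 and siTj 2, and 0 to 5 without 1 library (4 with the block without siTj 2). Gained starts called higher were 0, 9, 3, 18, 9 and 11 under the same settings, and 0 to 7 without 1 library (4 with the block without siGFP 3). The settings with DESeq2 and the block, with the block on 6 libraries, and without siPiwi 2 and siTj 2, and both counts within classes, were chosen after seeing the data. For the 38 genes with a printed fold change, none of 760 alternatives turned the sign, 225 passed the threshold where the fit without pairing did not, and 38 ended a call. The cause of these differences was not tested. Cut&Run depth is unknown, so how far it limits the summit lists could not be measured.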
